A study of Triticum aestivum with 4 samples.

Results

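Transcripts of the flowering-promoting factor 1-like family (FPF1-like) were followed in roots of bread wheat, Triticum aestivum, sampled when the plants were 45 days old. The plants, all of genotype UAS-375, came either from seeds spun at hypergravity of 10 g for 12 h before sowing or from untreated seeds. The members are the rows of the deposited transcript table whose protein description holds the words flowering-promoting factor 1 and ends in an Aegilops, Triticum, Hordeum or Brachypodium species. This rule found 4 of 147297 rows, in 3 assembled genes, all with a best hit in goatgrass (Aegilops tauschii). All 4 belong to the 91482 rows for which a value per library could be had, and 0 to the 55815 rows that hold 1 FPKM value per group. The family was taken up because FPF1-like protein 2 was far lower in the hypergravity roots, so the values of that transcript are a description and no test of it is given. The other 3 transcripts were taken by their description alone, whatever their values.

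Both groups are of 1 genotype and differ in the seed treatment: hypergravity (2 libraries) and control (2 libraries). Plants of both groups grew in greenhouse pipes in a randomized layout. Nothing in the labels tells if libraries stem from different plants or from pooled material, so each p-value reflects only how far these particular libraries differ, which may be technical. The libraries of a group are called a and b, since nothing ties them to the replicate numbers.

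FPF1 proteins are small plant proteins, first described in mustard shoot tips at the switch to flowering. In Arabidopsis, raising FPF1 brings flowering forward and has been linked to the response to gibberellin, a growth hormone. In rice, a member of the same family is known as ROOT ARCHITECTURE ASSOCIATED 1 and acts on root growth and on the response to auxin, so the family is known for roles in roots as well as in flowering. The names here (protein 1, 2 and 5) are those of the best protein hits, and the place of these transcripts in the wheat genome was not analysed here. Which of these transcripts is closest to the rice root protein was not analysed either, so its role is not tied to any 1 of them.

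Recovered counts summed to between 46604327 and 47850533 per hypergravity library and between 49424285 and 53346750 per control library. The 4 FPF1-like transcripts together held 503 and 525 counts in hypergravity a and b, against 683 and 776 in control a and b. The labelled tissue was checked by markers: 341 transcripts of families abundant in roots (peroxidases, PIP and TIP aquaporins, CASP-like proteins, nicotianamine synthases, high-affinity nitrate transporters) held 7234 and 6332 CPM (counts scaled to the library's total) in hypergravity a and b, against 7797 and 8968 in control a and b. Of the 341, 194 were any protein with peroxidase in its description, not root forms alone. These held 5722 and 5098 CPM in hypergravity a and b, against 6172 and 6976 in control a and b. The 6 transcripts of photosynthesis proteins held 38.8 and 33.0 CPM in hypergravity, against 28.8 and 29.4 in control, and 0 rows were found for the small chain of ribulose bisphosphate carboxylase. Most of this came from 2 photosystem II transcripts, at 32.9 and 28.1 CPM in hypergravity against 21.9 and 21.6 in control. The 3 chlorophyll a-b binding transcripts held 2.92 and 2.15 against 2.21 and 1.35. The 1 oxygen-evolving enhancer transcript went the other way, at 2.92 and 2.70 against 4.67 and 6.49. A further 3 chlorophyll a-b binding and 2 photosystem II rows were in FPKM and not counted. Levels below are normalized counts (a library's count divided by its size factor), with exact Poisson intervals that cover counting error only.

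FPF1-like protein 2 (TRINITY_DN26570_c0_g1_i1, 915 bases, UniProt Q8LR63) was the member with the largest difference between the groups. It stood at 19.8 and 23.7 normalized counts in hypergravity a and b, against 330.3 and 317.5 in control a and b. Both hypergravity libraries were low and both control libraries high, and the groups were far apart. The counts behind these levels were 19 and 23 in hypergravity and 335 and 338 in control. Their 95% intervals ran from 11.4 to 29.7 and from 14.6 to 34.5 counts in hypergravity, against 300.1 to 372.9 and 302.9 to 376.0 in control, so the libraries within each group differed by less than counting error. The group means were 21.7 ± 2.74 in hypergravity and 324 ± 9.05 in control (SD, n = 2 each).

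The log2 fold change of FPF1-like protein 2, hypergravity over control, was -3.84 ± 0.20 (SE), or 14.3-fold lower on the scale of log2(normalized count + 1). In the list of the 91482 transcripts with values per library, ordered from the most negative fold change, it came 7th. It came 1st among the 59378 transcripts with a best hit in goatgrass, wheat, barley or Brachypodium, called grass-hit transcripts below. The ranked transcripts each had at least 9 counts in every library, so transcripts without reads in 1 group are not among them. The rows in FPKM were not ranked, and 252 of their 10101 rows with such a best hit were listed at 0 in hypergravity and above 0 in control. Per kilobase of transcript it averaged 23.8 ± 2.99 normalized counts in hypergravity, at the 0.134th percentile of the transcripts with values per library. In control the level per kilobase was 354 ± 9.89, at the 77.6th percentile (SD, n = 2 each). It was the only transcript of its assembled gene, TRINITY_DN26570_c0_g1 among the rows with values per library or in FPKM. In bulk tissue, fewer cells that express a gene and less RNA per cell cannot be told apart.

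**Figure D1:**
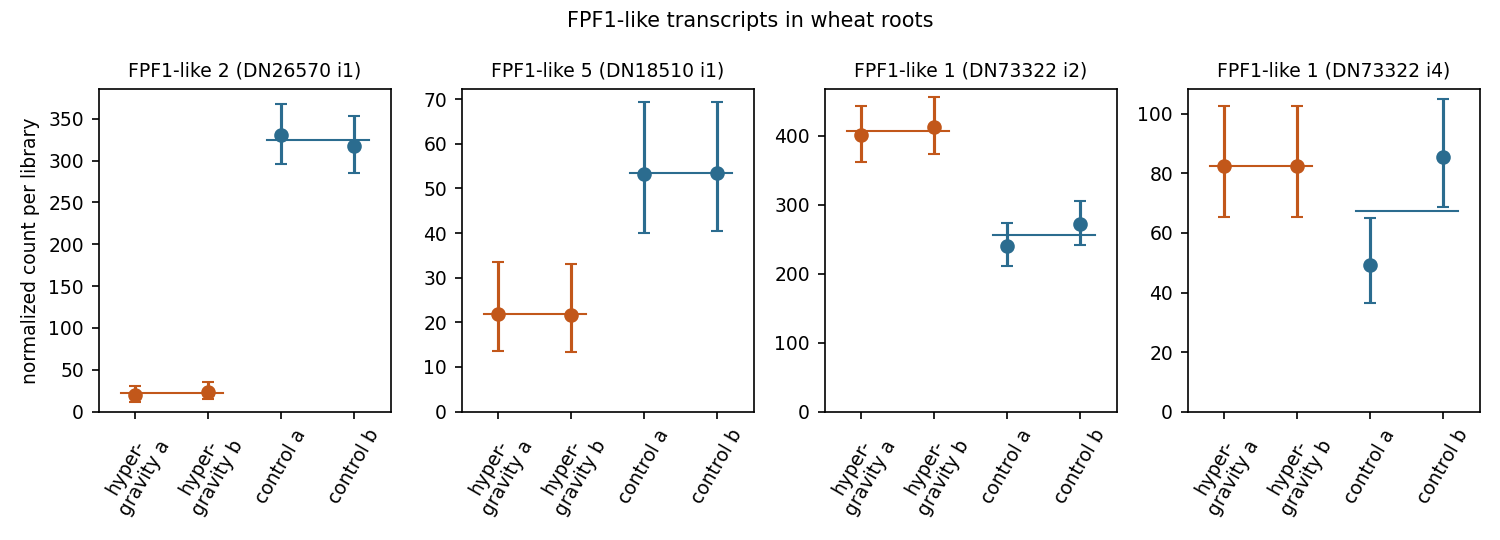
Normalized counts of the 4 FPF1-like transcripts (vertical axes, each from 0) in hypergravity a and b (orange) and control a and b (blue); points are libraries with exact Poisson 95% intervals and horizontal lines are group means. FPF1-like 2 sits at 19.8 and 23.7 in hypergravity against 330.3 and 317.5 in control, FPF1-like 5 is lower in both hypergravity libraries, and transcript i2 of FPF1-like 1 is higher in both.

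FPF1-like protein 5 (TRINITY_DN18510_c0_g1_i1, 539 bases, UniProt A3BNA1) fell too, and its difference was smaller. It stood at 21.9 and 21.6 normalized counts in hypergravity a and b, against 53.2 and 53.5 in control a and b. The libraries of each group were nearly equal, and the groups did not overlap. Its log2 fold change was -1.26 ± 0.24 (SE), or 2.39-fold lower, with a Benjamini-Hochberg adjusted p of 0.00419 by limma over all 91482 transcripts. These levels rest on 21 and 21 counts in hypergravity and 54 and 57 in control. The interval of 21 counts ran from 13.0 to 32.1, far wider than the gap between the libraries, so the closeness of the replicates understates the counting error of this transcript.

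FPF1-like protein 1, which shares its UniProt hit (Q9LGE3) with both transcripts of the assembled gene TRINITY_DN73322_c0_g1, went the other way. The longer transcript (TRINITY_DN73322_c0_g1_i2, 1018 bases) stood at 400.4 and 412.9 normalized counts in hypergravity a and b, against 240.6 and 272.4 in control a and b. Both hypergravity libraries lay above both control libraries. Its log2 fold change was 0.67 ± 0.13 (SE), or 1.59-fold higher, with an adjusted p of 0.00364 by limma. The same assembly component also holds rows with sorghum hits, listed at 8.69 and 7.88 FPKM in hypergravity and at 0 in control. Whether reads like those behind these rows add to the level of this transcript was not tested.

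The shorter transcript of FPF1-like protein 1 (TRINITY_DN73322_c0_g1_i4, 805 bases) was not called. It stood at 82.4 and 82.4 normalized counts in hypergravity a and b, against 49.3 and 85.5 in control a and b, so the groups overlapped. Its log2 fold change was 0.34 ± 0.27 (SE), with a 95% interval from -0.26 to 0.94 and an adjusted p of 0.395 by limma. The control libraries held 50 and 91 counts, with intervals from 37.1 to 65.9 and from 73.3 to 111.7 that do not overlap. Only 2.06% of all transcripts differed more between the control libraries on the log2 scale. Without control a the log2 fold change was -0.053, so the sign rests on that library.

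Both transcripts of FPF1-like protein 1 belong to 1 assembled gene and share reads, so they are not independent measurements. Of the counts of the pair, transcript i4 held 17.1% and 16.6% in hypergravity a and b, against 17.0% and 23.9% in control a and b. The exact binomial 95% intervals were 13.7% to 20.8% and 13.4% to 20.3% in hypergravity, against 12.9% to 21.8% and 19.7% to 28.5% in control. The share was thus close to 17% in 3 libraries and higher in control b, and the groups overlapped. Summed over the pair, the gene averaged 489 ± 8.82 normalized counts in hypergravity and 324 ± 48.1 in control (SD, n = 2 each). The log2 fold change of the sum was 0.60 ± 0.14 (SE), with an adjusted p of 0.0135 by limma over 47167 assembled genes. The call did not hold with control a left out (adjusted p = 0.0855 by limma) or with hypergravity b left out (0.0696). Of all assembled genes, 26.6% were called in either direction.

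Of the 3 transcripts tested, 1 was called higher and 1 lower. Among all transcripts 13.5% were called higher and 11.9% lower by limma at an adjusted p under 0.05. The groups did not overlap for 3 of the 4 members, against 63.9% of all transcripts. With the family chosen on a fall in this same contrast, nothing is read from these counts about the family as a whole. The plot of fold changes among all transcripts shows where each member lay.

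**Figure D2:**
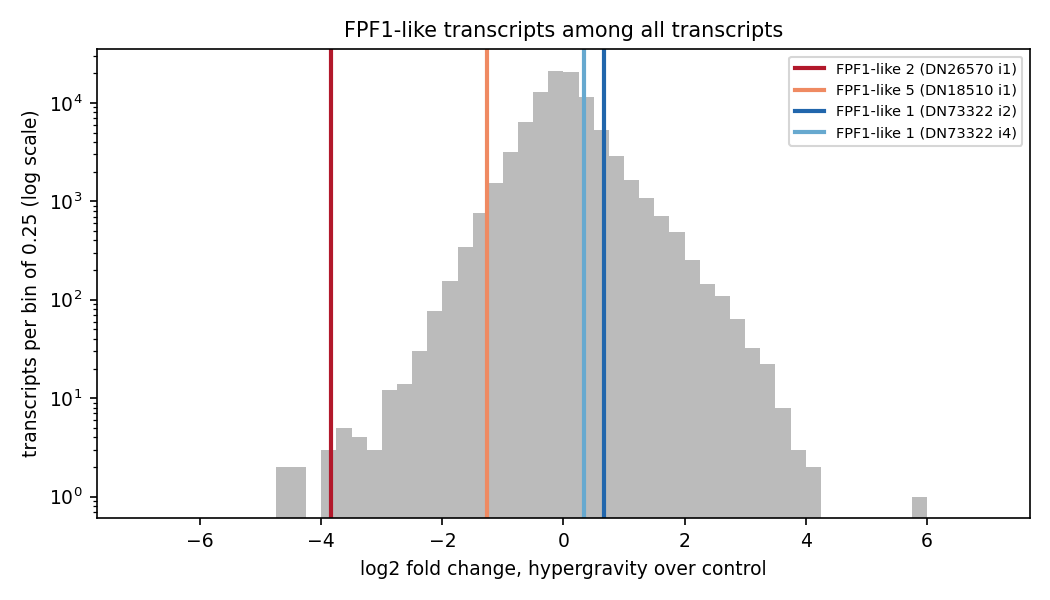
Number of transcripts (vertical, log scale) per bin of log2 fold change, hypergravity over control (horizontal), for all 91482 transcripts in grey, with the 4 FPF1-like transcripts as coloured lines. FPF1-like 2 at -3.84 lies at the far lower edge, FPF1-like 5 at -1.26 in the lower slope, and the FPF1-like 1 transcripts at 0.34 and 0.67 on the upper side.

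The order of the members by level changed between the groups. Per kilobase, hypergravity roots held transcript i2 of FPF1-like protein 1 highest at 399 ± 8.66 normalized counts, then its transcript i4 at 102 ± 0.00481, FPF1-like protein 5 at 40.4 ± 0.361 and FPF1-like protein 2 lowest at 23.8 ± 2.99 (SD, n = 2 each). The library values behind these 4 levels did not overlap between neighbours, with counting error left aside. The counts of proteins 5 and 2 were nearly the same (21 and 21 against 19 and 23), so their order per kilobase rests on their lengths. In control roots FPF1-like protein 2 was highest at 354 ± 9.89 per kilobase, followed by transcript i2 at 252 ± 22.1, FPF1-like protein 5 at 99.1 ± 0.395 and transcript i4 at 83.7 ± 31.8. The last pair overlapped, since transcript i4 stood at 61.2 and 106.2 per kilobase in control a and b and FPF1-like protein 5 at 98.8 and 99.3.

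FPF1-like protein 2 thus made up a small part of the family's counts in hypergravity roots and was the largest of the 4 transcripts in control roots. Its share was 3.78% and 4.38% in hypergravity a and b, against 49.0% and 43.6% in control a and b. By assembled gene it was not largest in both control libraries. The transcripts of FPF1-like protein 1 together held 294 and 381 counts in control a and b, against 335 and 338 for FPF1-like protein 2. Transcript i2 of FPF1-like protein 1 took 76.3% and 76.4% in hypergravity, against 35.7% and 37.4% in control. The counting intervals for FPF1-like protein 2 ran from 2.29% to 6.50% over both hypergravity libraries, against 40.0% to 52.9% over both control libraries. The family was chosen on the fall of this transcript, so the distance between these intervals is no test. A share must rise for one member when another falls, so these shares describe the make-up only.

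**Figure D3:**
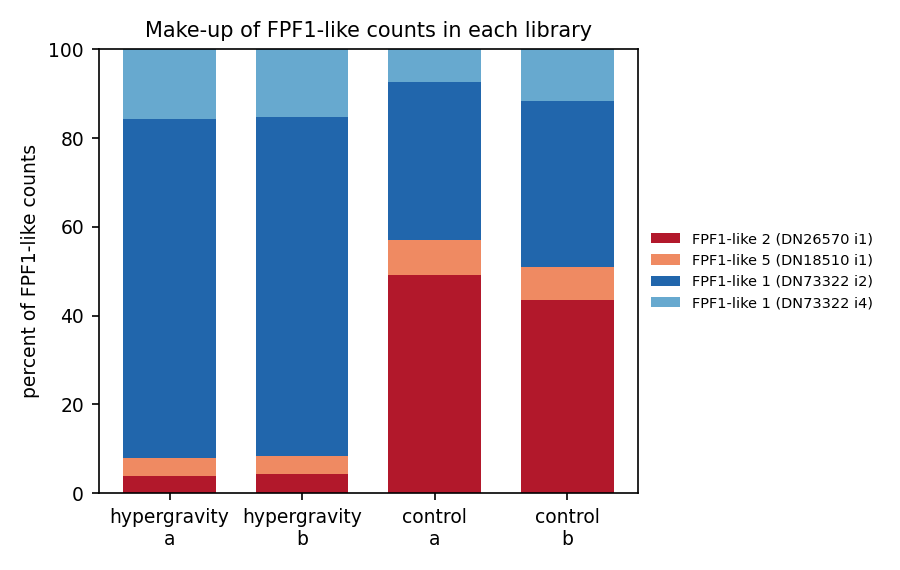
Percent of the FPF1-like counts of a library (vertical, 0 to 100) taken by each of the 4 transcripts, for hypergravity a and b and control a and b. FPF1-like 2 (dark red) takes 3.78% and 4.38% in hypergravity against 49.0% and 43.6% in control, and transcript i2 of FPF1-like 1 (dark blue) takes most of the counts in hypergravity.

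Summed over the 4 members, the family averaged 533 ± 11.4 normalized counts in hypergravity and 701 ± 39.3 in control (SD, n = 2 each). Without FPF1-like protein 2 the sum was 511 ± 8.62 in hypergravity and 377 ± 48.3 in control. The sum was therefore lower in both hypergravity libraries with that transcript and higher in both without it. No test is given for these sums, because the family was chosen on 1 of its members.

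A further 3 rows carried the family's name but a best hit in another species, and stand outside the family. An FPF1-like protein 1 transcript with a rice hit (TRINITY_DN55728_c0_g1_i1, 642 bases) stood at 55.3 and 42.2 normalized counts in hypergravity a and b, against 49.3 and 76.1 in control a and b. The groups overlapped, and its log2 fold change was -0.34 ± 0.27 (SE) with an adjusted p of 0.406 by limma. The other rows, both with sorghum hits, hold 1 FPKM value per group and were not tested.

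The transcripts whose pattern over the 4 libraries was most like that of FPF1-like protein 2 were sought among grass-hit transcripts of other assembled genes. Likeness was the Euclidean distance between profiles of log2(normalized count + 1), each after subtracting its own mean, so it takes in the size of the change and not the level. The nearest was non-specific lipid-transfer protein 4.3 (TRINITY_DN6076_c2_g1_i2), of a family of small secreted lipid-binding proteins, at a distance of 0.445. It stood at 18.8 and 22.7 normalized counts in hypergravity a and b, against 217.9 and 291.2 in control a and b.

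The next were PIN-LIKES 7-like (TRINITY_DN15358_c0_g1_i3, distance 0.868), of a family of auxin carriers in the endoplasmic reticulum, and a GDSL esterase/lipase (TRINITY_DN5074_c0_g1_i6, distance 1.01). The subtilisin-like protease SBT3.9 (TRINITY_DN22941_c0_g1_i2) followed at 1.06 and an uncharacterized protein (TRINITY_DN2053_c1_g1_i2) at 1.08. By this choice, all 5 were low in both hypergravity libraries and high in both control libraries, with log2 fold changes between -3.55 and -2.81. These could only be smaller in size than that of FPF1-like protein 2, which had the most negative fold change of all grass-hit transcripts. The other family members lay farther off. FPF1-like protein 5 was at a distance of 2.59, and transcripts i4 and i2 of FPF1-like protein 1 were at 4.22 and 4.51. With 4 libraries, this likeness is a description.

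**Figure D4:**
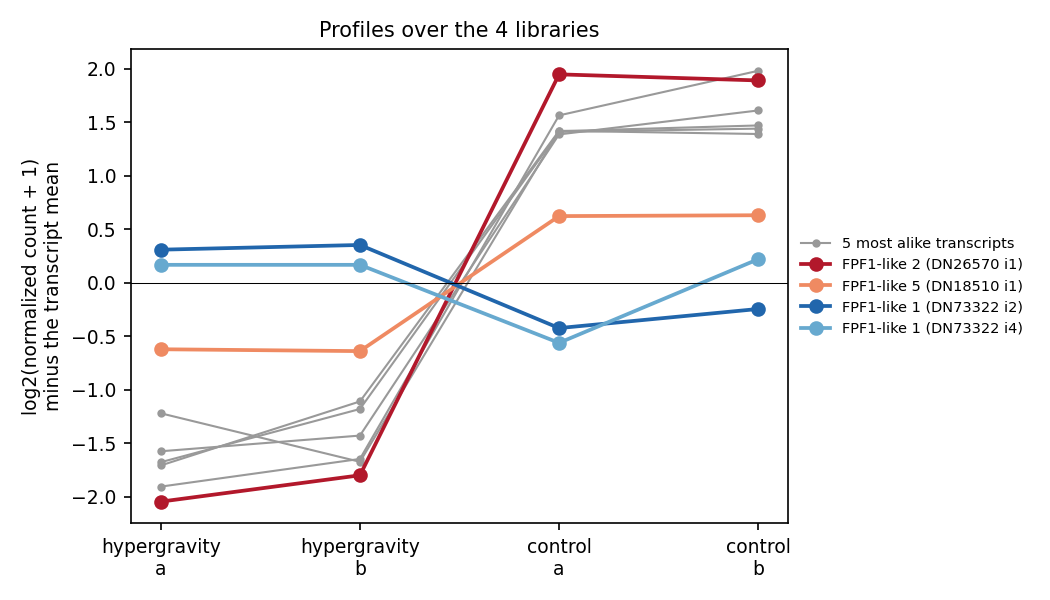
Profiles of the 4 FPF1-like transcripts (coloured) and of the 5 grass-hit transcripts most like FPF1-like 2 (grey) over hypergravity a and b and control a and b; the vertical axis is log2(normalized count + 1) minus the mean of the transcript over the 4 libraries. FPF1-like 2 and the grey lines are low in both hypergravity libraries and high in both control libraries, and the FPF1-like 1 transcripts do not share this shape.

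The genes around the family were described by 5 lists of grass-hit transcripts, picked by words in the protein description: flowering time, gibberellin, root architecture, auxin transport and the anaphase-promoting complex. Among all 59378 grass-hit transcripts 13.2% were called higher and 13.0% lower, with a median log2 fold change of -0.02. Of their 28615 assembled genes, 4171 had a called rise in at least 1 transcript and 4694 a called fall. The lists are set beside these values, and isoforms count separately except where assembled genes are named.

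Of 148 flowering-time transcripts in 63 assembled genes, 13 rose, 39 fell and 96 were not called, with a median of -0.15. The MADS-box factors, transcription factors that include floral and root regulators, made up 73 of these, of which 10 rose and 29 fell, with a median of -0.34 (by assembled gene, 6 of 32 had a rise and 13 a fall). A MADS-box 25-like transcript (TRINITY_DN7830_c0_g1_i1) rose, at 588.1 and 556.0 normalized counts in hypergravity a and b, against 258.3 and 278.1 in control a and b. Its log2 fold change was 1.09 ± 0.12 (SE), with an adjusted p of 0.000117 by limma.

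Of 22 CONSTANS-LIKE transcripts, zinc-finger proteins of a family that reads day length, 2 rose and 5 fell. A CONSTANS-LIKE 13-like transcript (TRINITY_DN3541_c2_g1_i1) stood at 34.4 and 60.8 normalized counts in hypergravity a and b, against 178.5 and 210.4 in control a and b, with a log2 fold change of -2.06 ± 0.26 and an adjusted p of 0.000382. Another gene named CONSTANS-LIKE 13-like had a transcript that rose (TRINITY_DN11757_c0_g1_i3, 1.02, adjusted p = 0.0245 by limma). Further transcripts of that name were not called. A CONSTANS-LIKE 14-like transcript (TRINITY_DN10983_c0_g1_i8) fell to 672 ± 48.9 in hypergravity, against 1183 ± 87.4 in control (SD, n = 2 each).

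Of 11 transcripts of FLOWERING LOCUS T or RICE FLOWERING LOCUS T 1, named for mobile flowering signals, 1 rose and 0 fell by limma. That 1 (TRINITY_DN471_c0_g1_i16) averaged 1116 ± 5.58 normalized counts in hypergravity and 829 ± 30.8 in control (SD, n = 2 each). The 3 GIGANTEA transcripts, of a clock protein upstream of flowering, were not called, with log2 fold changes between -0.08 and 0.05. Of 15 FRIGIDA or FRIGIDA-like transcripts 0 rose and 2 fell.

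Gibberellin transcripts had more rises than falls: of 72 in 42 assembled genes, 23 rose, 9 fell and 40 were not called, with a median of 0.30. Transcripts named after synthases of the first steps, ent-copalyl diphosphate and ent-kaurene synthases, rose in 11 of 32 and fell in 4. These names are best hits, many of them marked as -like, and a role in gibberellin synthesis was not tested. By assembled gene, 9 of 22 had a rise and 2 a fall. Among those that fell, an ent-copalyl diphosphate synthase 1 transcript (TRINITY_DN9967_c0_g1_i12) stood at 54.2 and 55.6 normalized counts in hypergravity a and b, against 125.2 and 149.4 in control a and b.

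The gibberellin 2-beta-dioxygenases, which inactivate the hormone, rose in 5 of 14 transcripts, in 2 of 5 assembled genes, and fell in 0. A transcript of that family (TRINITY_DN6499_c0_g1_i5) changed by 0.98 ± 0.14 on the log2 scale (adjusted p = 0.000722 by limma). Chitin-inducible gibberellin-responsive proteins, of the GRAS family, rose in 4 of 5 transcripts, in 2 of 3 assembled genes, and one of them (TRINITY_DN292_c0_g1_i3) averaged 6917 ± 694 in hypergravity and 2933 ± 18.1 in control (SD, n = 2 each). Of 7 transcripts of DELLA proteins, the repressors of gibberellin response, 1 rose and 3 fell. RGL1-like (TRINITY_DN1913_c0_g2_i1) changed by -0.79 ± 0.14 (adjusted p = 0.00237 by limma). RHT-1 (TRINITY_DN518_c0_g1_i7, -1.06) and SLN1-like (TRINITY_DN4030_c0_g1_i2, -0.60) fell too, and SLN1 (TRINITY_DN518_c1_g1_i1, 1.03) rose. Of 10 ent-kaurene and ent-kaurenoic acid oxidase transcripts 2 rose and 1 fell. Of 2 transcripts of the gibberellin 20 and 3 oxidases 0 rose and 1 fell. The 2 transcripts of the receptor GID1 were not called.

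**Figure D5:**
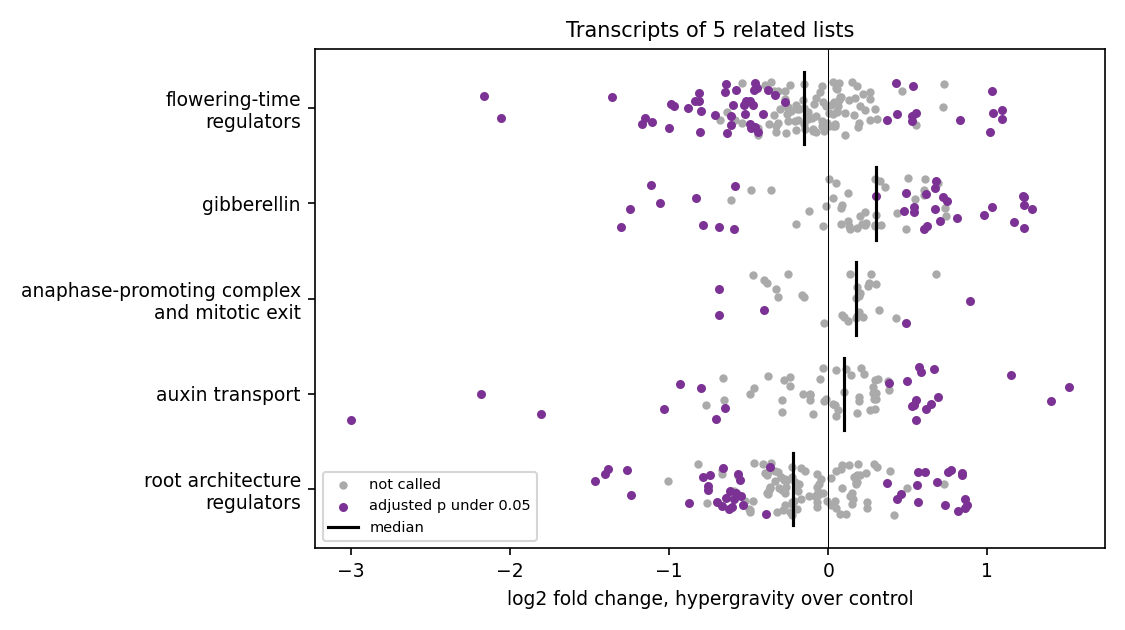
Log2 fold change, hypergravity over control (horizontal), of each grass-hit transcript of 5 lists (rows, spread vertically for visibility); purple points had an adjusted p under 0.05 by limma, grey points did not, and black bars are medians. The flowering-time and root architecture medians lie at -0.15 and -0.22, and the gibberellin median at 0.30.

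Root architecture regulators had a median of -0.22, with 17 of 138 higher and 25 lower. Scarecrow and scarecrow-like factors, GRAS proteins named after a factor that patterns root tissue, rose in 10 of 91 and fell in 21. A role of each in root patterning was not tested. Within that group a scarecrow-like 21 transcript (TRINITY_DN27136_c0_g1_i1) rose by 0.86 ± 0.11 and another of the same name (TRINITY_DN20835_c0_g1_i5) changed by -0.66 ± 0.10, and scarecrow-like 3 (TRINITY_DN1516_c0_g1_i1) by -0.67 ± 0.10. WUSCHEL-related homeobox transcripts, of a family that maintains meristems, rose in 7 of 9 transcripts, in each of the 4 assembled genes, and fell in 0. One of them (TRINITY_DN990_c0_g1_i10, homeobox 8-like) stood at 1012 and 964 normalized counts in hypergravity a and b, against 519 and 584 in control a and b. LOB domain transcripts, of a family active in lateral root formation, fell in 4 of 7 transcripts, in 3 of 5 assembled genes, and rose in 0. The 30 ROOT PRIMORDIUM DEFECTIVE 1 transcripts had 0 calls by limma, with log2 fold changes between -0.47 and 0.39.

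Auxin transport had 15 of 67 transcripts higher and 8 lower, with a median of 0.10, but by assembled gene 5 of 26 had a rise and 6 a fall. The 8 transcripts of SPIN1, an RNA-binding protein taken in by the text search, are not auxin carriers, and 1 of them rose. PIN-LIKES transcripts rose in 11 of 21 and fell in 3. Of the rises, 10 were isoforms of 1 assembled gene named PIN-LIKES 7-like (TRINITY_DN51_c0_g1), and by gene 2 of 6 had a rise and 2 a fall. Genes named PIN-LIKES 7-like went both ways. Those that fell include the PIN-LIKES 7-like transcript of another gene (TRINITY_DN15358_c0_g1_i3) that resembled FPF1-like protein 2. That transcript averaged 98.9 ± 7.18 normalized counts in hypergravity and 800 ± 87.6 in control (SD, n = 2 each). The auxin efflux carriers rose in 0 of 18 transcripts and fell in 1, component 5b (TRINITY_DN14915_c0_g1_i2, -0.93). Of 19 ABC transporter B transcripts, of a family with auxin exporters, 3 rose and 3 fell, with a median of -0.02. A member 19-like transcript (TRINITY_DN19492_c0_g1_i4) rose by 1.40 ± 0.13 and a member 11-like transcript (TRINITY_DN2005_c0_g1_i12) by 1.15 ± 0.13. Another gene named member 19-like fell, with log2 fold changes of -0.71 and -0.65 for transcripts TRINITY_DN317_c0_g2_i1 and TRINITY_DN317_c0_g2_i3. Auxin transporter-like protein 1 (TRINITY_DN14860_c0_g1_i5), of the uptake carriers, changed by -1.03 ± 0.12.

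The anaphase-promoting complex, a ubiquitin ligase of cell division to which the rice root protein of this family has been tied, had 2 of 34 transcripts higher and 3 lower, with a median of 0.17. An activator of the complex of the CDC20 type (TRINITY_DN54268_c0_g1_i2) stood at 136.6 and 155.5 normalized counts in hypergravity a and b, against 88.7 and 68.6 in control a and b, a log2 fold change of 0.89 ± 0.20 (adjusted p = 0.00935 by limma). FIZZY-RELATED 2-like (TRINITY_DN4877_c0_g1_i6), another activator, rose by 0.49 ± 0.12. Subunit 13 (TRINITY_DN14394_c0_g1_i6) changed by -0.69 ± 0.14 and subunit 11-like (TRINITY_DN18021_c0_g2_i1) by -0.40 ± 0.12. The other 29 transcripts were not called.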

How the data were processed

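Stranded paired-end mRNA libraries were made from total root RNA, per the labels' protocols. RSEM is named in the submitters' processing notes without a version, and no assembler, aligner or filter is named in the sources used here. The deposited value columns, headed FPKM per the file headers, were treated as a signal: in 91482 rows the deposited signal is the total, for both libraries of a group, of whole counts divided by size factors. Each sum was split into 1 pair of whole counts (100% within a tolerance of 1e-09; largest error 5.09e-10, smallest error of a second pair 4.67e-07). The steps gave size factors of 0.959 and 0.971 in hypergravity and 1.01 and 1.06 in control, which equalled the median-of-ratios factors of the recovered counts. The other 55815 rows are FPKM as the authors named them, 1 value per group, and were not tested. The deposited length column (other unit, bases) gave levels per kilobase.

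Log2(normalized count + 1) was compared by limma 3.58.1 in R 4.3.3 (mean-variance trend, 2 residual and 7.91 prior degrees of freedom, mean of at least 1), adjusted by Benjamini-Hochberg over all transcripts, and called at an adjusted p under 0.05. Exact permutation of 2 against 2 libraries cannot go below p = 0.333, so none is given. Intervals are exact (Poisson; Clopper-Pearson) at 95%. Members and lists were chosen with earlier results of these data known. Named were all members, the 5 most alike transcripts, and per list at most 2 called transcripts in each direction. Those of the lists had the smallest adjusted p, 1 per assembled gene. Further transcripts were named after the data were seen, most because they share a name or protein family with these. Parts of lists by protein name were also chosen after the data were seen. Of 6 protein accessions of the family's name, 0 occurred in the wheat RefSeq gene table used here.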

Additional observations from a re-analysis of the deposited data

Results flagged for a closer look

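A pair of rows outside the family, in the same assembly component as FPF1-like protein 1, carried a signal in hypergravity that was not part of any comparison. The row named FPF1-like protein 2 with a sorghum hit (TRINITY_DN73322_c0_g2_i2, 632 bases) was listed at 8.69 FPKM in hypergravity and at 0 in control. The row named FPF1-like protein 1 with a sorghum hit (TRINITY_DN73322_c0_g3_i1, 586 bases) was listed at 7.88 FPKM in hypergravity and at 0 in control. These are the authors' values, 1 per group, and no fold is given against a value listed at 0. The same pattern was common among rows with sorghum hits: 1999 of 2411 such rows in FPKM (82.9%) were above 0 in hypergravity and listed at 0 in control, and 4 showed the opposite. Among FPKM rows with a goatgrass, wheat, barley or Brachypodium hit it held for 1120 of 10101 (11.1%), and among all FPKM rows for 29.7%. The species of the RNA behind the rows with sorghum hits was not tested.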

How the results depend on the processing

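FPF1-like protein 5 and transcript i2 of FPF1-like protein 1 kept their direction and their side of the threshold under each alternative that gave a value (pseudocounts of 10 and 0.1, equal library totals, quantile normalization, no mean-variance trend, each library left out). Dropping the filter is no check, since every transcript passed it. At a mean of at least 50, transcript i2 kept its call and FPF1-like protein 5 was not tested, since its mean is below that. Without 1 library the log2 fold change ran from -1.27 to -1.25 for FPF1-like protein 5, from 0.58 to 0.75 for transcript i2 and from -3.96 to -3.72 for FPF1-like protein 2. The fold of FPF1-like protein 2 was -3.40 with a pseudocount of 10, which weighs more on its low counts in hypergravity.

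Transcript i4 ranged from -0.053 to 0.73 and turned to -0.053 without control a (adjusted p = 0.932). The summed gene TRINITY_DN73322_c0_g1 ranged from 0.45 to 0.75 without 1 library and was not called without control a (0.45) or hypergravity b (0.58), nor without the mean-variance trend (0.60, adjusted p = 0.0555). Over all transcripts the count called lower was 6622 without the trend, and 6983 to 10804 without 1 library, against 10928. Over assembled genes it was 3435 without the trend, and 3481 to 5671 without 1 library, against 5799. The causes were not tested. A group left with 1 library is assumed to vary like the other. No paired analysis was possible because the recovered libraries carry no replicate number. Levels near 20 counts limit FPF1-like proteins 2 and 5 in hypergravity.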
